A study of Homo sapiens with 6 samples.

Results

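The collagen genes of U2OS cells were compared between cells given an siRNA against SURF2 and cells given a scrambled siRNA. Members were the protein-coding rows of the deposited count table whose symbol is COL, a number, A and a number, and 44 of the 58051 genes in the table met this rule. U2OS is a human osteosarcoma line. Cells grew in medium with 10% serum and received 2 siRNA transfections 49 h apart, and RNA was taken at 96 h for polyA sequencing. The groups were siSCR (scrambled siRNA, 3 libraries) and siSURF2 (siRNA against SURF2, 3 libraries), and apart from the siRNA the labels give both the same treatment. The labels name no siRNA sequence and do not say whether libraries of a group came from separate cultures, so the spread behind each p-value may be technical. All cells were of 1 line, and no rescue or further siRNA is labelled.

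Collagens are the main structural proteins of the extracellular matrix, and their chains wind around each other into a rope-like helix in the endoplasmic reticulum before export. Fibrillar collagens pack into banded fibrils, type IV collagens form the meshwork of basement membranes, type VI collagens form beaded filaments around cells, and transmembrane collagens stay anchored in the cell membrane until their outer part is shed. In bone, type I collagen, built from COL1A1 and COL1A2 chains, is the bulk of the organic matrix laid down by osteoblasts.

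Counts assigned to genes ranged from 17123333 to 19688089 per library, and levels are given in CPM, counts scaled to a fixed library size with TMM factors. Libraries are listed throughout in the order of replicates 1, 2 and 3. SURF2 had 36.2, 35.8 and 32.3 CPM under siSCR against 3.74, 3.56 and 3.20 CPM under siSURF2, a 9.93-fold lower mean. Mitochondrial genes held 2.73% of counts in siSURF2 replicate 2 against 4.70% and 4.74% in replicates 1 and 3, and that library differed most from the others of its group. Of the osteoblast lineage markers, RUNX2 was present at 22.8 ± 1.60 CPM in siSCR (SD, n = 3), while the late markers IBSP and DMP1 had 0 counts in all 6 libraries and SP7, BGLAP, SOST and DLX5 stayed under 1 CPM. The 7 blood cell markers summed to at most 0.550 CPM in any library.

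Type IV collagen genes lie in pairs that start back to back, so the RefSeq promoter windows (250 bases before to 50 after the start, GRCh38.p14) of partners overlap. Promoter windows were found for 32 of the 44 genes. Among these partners, COL4A1 and COL4A2 moved in opposite directions between the groups, while COL4A6 and COL4A3 had too few counts to be tested. The shared stretches of all type IV pairs are shown, and their role in these values was not tested. They are written on the plus strand from 5′ to 3′, and capitals mark CCAAT and GGGCGG, boxes found in many promoters, searched on both strands, so that a match may appear as its reverse complement. The first is chr13:110307108-110307333 between COL4A1 (minus strand) and COL4A2 (plus strand), whose start sites are 127 bases apart. The second is chrX:108439588-108439708 between COL4A6 (minus) and COL4A5 (plus), and the third is chr2:227164374-227164455 between COL4A4 (minus) and COL4A3 (plus).
COL4A1 and COL4A2: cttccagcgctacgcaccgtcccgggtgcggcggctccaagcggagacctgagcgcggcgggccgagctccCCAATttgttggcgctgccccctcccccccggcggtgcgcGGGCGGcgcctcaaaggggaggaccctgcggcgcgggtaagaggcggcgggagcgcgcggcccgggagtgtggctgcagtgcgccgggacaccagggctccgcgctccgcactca
COL4A6 and COL4A5: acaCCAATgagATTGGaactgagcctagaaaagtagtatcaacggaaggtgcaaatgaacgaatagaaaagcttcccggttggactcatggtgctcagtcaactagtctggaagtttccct
COL4A4 and COL4A3: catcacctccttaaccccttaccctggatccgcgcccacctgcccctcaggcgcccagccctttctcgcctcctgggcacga
The COL4A1 and COL4A2 stretch held 1 CCAAT match, 22 bases upstream of the COL4A1 start and 101 bases upstream of the COL4A2 start, and 1 GGGCGG match, and 76.5% of its bases were G or C. The COL4A6 and COL4A5 stretch held 2 CCAAT matches and no GGGCGG match. The COL4A4 and COL4A3 stretch held neither set of letters. The letters TATAAA, searched on both strands like the others, were in none of the stretches. Of all 35116 promoter windows, 34.6% held CCAAT, 45.0% held GGGCGG and 11.5% held TATAAA, and of the 44 windows of collagen genes 31.8%, 54.5% and 18.2% did. A match describes these letters in the window and is not evidence of binding.

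More collagen genes were higher than lower with siSURF2, and 3 of 9 classes (fibrillar, basement membrane and fibril-associated) held genes that moved in each direction. Of 44 genes, 28 passed the filter on low counts and 16 did not. Of the 28 tested, 15 rose, 6 fell and the other 7 missed the threshold (edgeR quasi-likelihood test, Benjamini-Hochberg adjusted over 17561 genes, threshold 0.05). Over all genes tested, 25.8% rose and 26.2% fell, 52.0% in all. The median log2 fold change was 0.42 over the 28 tested collagen genes and 0.00 over all genes tested, and the median size of change was 0.67 and 0.29 on the same scale. Of the 27 collagen genes with a mean of at least 1 CPM in a group, 15 rose and 6 fell, against 27.8% and 28.2% of 15912 such genes (56.0% in all). With library sizes set from the ERCC spike-in RNA instead, 5 collagen genes rose and 3 fell (COL4A1, COL4A4, COL5A1, COL6A1, COL8A1, COL9A3, COL11A1 and COL13A1), and the other 13 calls were lost (edgeR adjusted p from 0.095 to 0.73). All 13 kept their direction there, and their log2 fold changes moved by at most 0.08, against a median shift of -0.04 over all genes. Of the 42 non-collagen genes named by the rule for the pathway lists and SURF2, 27 lost their call in the same way. Without siSURF2 replicate 2, the library with the lowest mitochondrial share, 15 collagen genes rose and 6 fell. At least a 2-fold rise was called for 4 of the 28 tested collagen genes (14.3%, against 4.67% of all genes tested). At least a 2-fold fall was called for 2 (7.14%, against 3.82% of all genes tested). COL9A3 and COL11A1, which passed the filter through the group where each was higher, are among them. Of the 28 tested, 23 were above the filter level of 0.524 CPM in every library of both groups. COL9A3, COL11A2 and COL20A1 reached it throughout siSURF2 and not throughout siSCR, COL11A1 throughout siSCR and not throughout siSURF2, and COL15A1 in neither, so the counts describe the genes that passed and not the family.

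**Figure D1:**
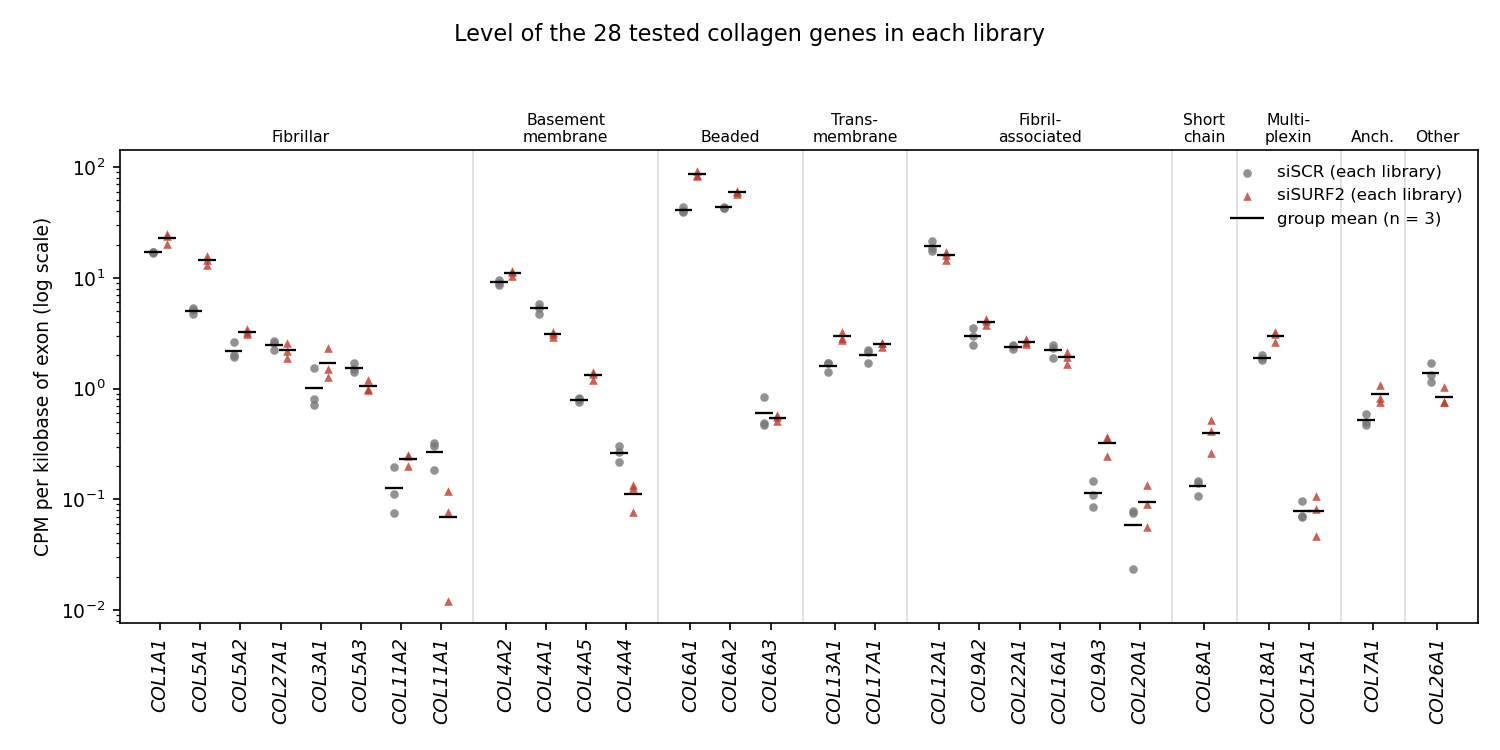
Level of each of the 28 tested collagen genes in CPM per kilobase of exon on a log axis, grouped by class, with 1 point per library (grey circles siSCR, red triangles siSURF2) and a bar at the mean of 3. COL6A1 and COL6A2 had the highest levels in both groups, and COL1A1, COL12A1 and, in siSURF2, COL5A1 came next, while COL11A1, COL15A1 and COL20A1 lay among the lowest.

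Measured per kilobase of exon, which allows levels of different genes to be compared, beaded collagens made up the largest share of the collagen mRNA. The level summed over the 44 genes was 161, 162 and 174 CPM per kilobase in siSCR and 258, 241 and 235 in siSURF2, and the groups did not overlap. The mean was 165 ± 7.22 in siSCR and 244 ± 11.8 in siSURF2 (SD, n = 3 each), 1.48-fold apart. Most of the rise was COL6A1, from 41.1 to 86.6 CPM per kilobase. COL6A2 (43.3 to 59.5), COL5A1 (5.08 to 14.6) and COL1A1 (17.04 to 23.0) followed, so the sum describes a few abundant genes. Beaded collagens made up 51.4% of that sum in siSCR and 60.03% in siSURF2, and fibrillar collagens 18.04% and 18.9%. In such bulk RNA, a change in the number of cells that express a gene and a change in its RNA per cell cannot be told apart. The sum was 85.02 ± 2.88 against 147 ± 5.56 CPM per kilobase for the beaded class and 29.8 ± 1.20 against 46.1 ± 4.40 for the fibrillar class. It was 15.6 ± 1.13 against 15.7 ± 0.711 for the basement membrane class, whose libraries overlapped between groups, and 3.69 ± 0.495 against 5.51 ± 0.164 for the transmembrane class. Fibril-associated collagens summed to 27.1 ± 2.61 and 25.1 ± 1.62, again with overlap. The rise of the fibrillar sum was mostly COL5A1 and COL1A1. Within the basement membrane class, COL4A1 fell from 5.33 to 3.11 CPM per kilobase while COL4A2 rose from 9.11 to 11.1. These sums carry no test. The scale assumes that the annotated exons are all in use, which was not tested.

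Among fibrillar collagens 4 genes rose, 2 fell and 2 others missed the threshold, while 3 of the 11 were not tested. COL5A1, a type V chain that nucleates and sets the width of collagen fibrils, lies on chromosome 9 at 134641774 to 134844843 (GRCh38, GENCODE 29). It stood at 57.5, 52.6 and 60.3 CPM in siSCR and 177, 164 and 148 CPM in siSURF2. Every siSURF2 library was above every siSCR library, and the mean rose 2.87-fold, from 56.8 ± 3.92 to 163 ± 14.9 CPM (SD, n = 3 each). The log2 fold change was 1.52 ± 0.06 (SE) and the edgeR adjusted p 6.0e-16. Its partner COL5A2 was at 14.997, 14.5 and 19.6 CPM and at 25.7, 24.4 and 23.3 CPM in the same order. The groups did not overlap, and COL5A2 rose by 0.57 ± 0.10 on the log2 scale (edgeR adjusted p = 1.1e-05). COL5A3, a type V chain of more restricted use, went the other way, from 10.1, 9.57 and 11.4 CPM to 8.03, 6.71 and 6.60 CPM. All siSURF2 libraries were below all siSCR libraries for COL5A3, and its log2 fold change was -0.54 ± 0.12 (edgeR adjusted p = 4.3e-04).

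COL1A1, the main chain of type I collagen on chromosome 17 at 50183289 to 50201632, was at 168, 165 and 169 CPM in siSCR and at 246, 234 and 197 CPM in siSURF2. It rose by 0.43 ± 0.06 on the log2 scale (edgeR adjusted p = 2.9e-06), with siSURF2 replicate 3 the lowest of its group and still above siSCR. COL1A2, which pairs with COL1A1 in the usual type I molecule, was nearly absent. It had 3, 2 and 2 counts in siSCR and 3, 1 and 0 counts in siSURF2, so it was not tested. Per kilobase of exon, COL1A1 stood at 17.04 ± 0.169 and COL1A2 at 0.0116 ± 0.00382 CPM in siSCR.

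COL11A1 and COL11A2 are chains of type XI collagen, which starts thin fibrils in cartilage, and they moved in opposite directions at low levels. COL11A1 was at 1.67, 2.94 and 2.77 CPM in siSCR and 0.110, 1.08 and 0.700 CPM in siSURF2, and siSURF2 replicate 1 held 2 counts of it. It fell 3.90-fold (log2 fold change -1.94 ± 0.40, edgeR adjusted p = 5.0e-04), with log2 fold changes from -1.46 without siSURF2 replicate 1 to -2.55 without siSURF2 replicate 2. COL11A2 was at 1.31, 0.749 and 0.513 CPM and then 1.70, 1.34 and 1.65 CPM, a rise of 0.89 ± 0.32 on the log2 scale (edgeR adjusted p = 0.022). The COL11A2 call was lost on leaving out siSCR replicate 2, siSCR replicate 3, siSURF2 replicate 1 or siSURF2 replicate 3, with adjusted p-values of 0.078, 0.15, 0.071 and 0.056. With DESeq2 its adjusted p was 0.065, and over all alternatives it ran from 0.004 to 0.23. COL11A1 was above the filter level throughout siSCR only and COL11A2 throughout siSURF2 only, the group where each was higher. Both calls are therefore given as a description.

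COL3A1, a fibrillar chain of elastic tissues, was at 5.53, 4.81 and 10.4 CPM in siSCR and 15.8, 10.2 and 8.60 CPM in siSURF2. One siSCR library, replicate 3, lay above 2 of the siSURF2 libraries, and the log2 fold change of 0.71 ± 0.42 missed the threshold (edgeR adjusted p = 0.23). Without siSCR replicate 3 the log2 fold change was 1.14 and the edgeR adjusted p was 0.011, and limma-voom gave 0.0096, within a range of 0.0092 to 0.42 over all alternatives. COL27A1, a fibrillar chain of cartilage, was at 34.98 ± 3.11 and 30.97 ± 4.83 CPM, with a log2 fold change of -0.17 ± 0.09 (adjusted p = 0.14). Without siSURF2 replicate 3 its log2 fold change was -0.29 (edgeR adjusted p = 0.0062, in a range up to 0.81). COL2A1 and COL24A1, a cartilage chain and a minor bone chain, had 1 to 7 counts in any library and were not tested.

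**Figure D2:**
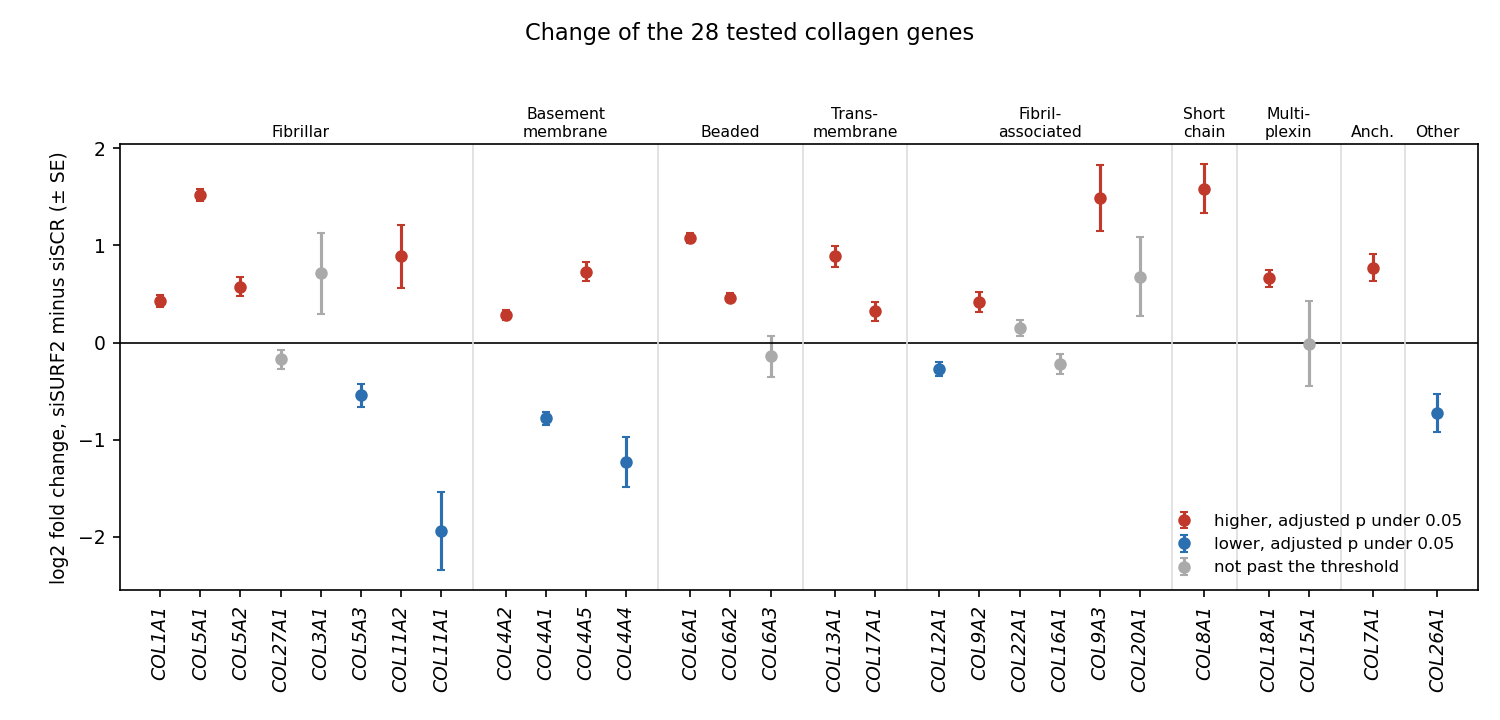
Log2 fold change of the 28 tested collagen genes, siSURF2 minus siSCR, with bars of ± 1 SE, in the same order as the plot of levels. Red genes passed the edgeR threshold as higher, blue as lower and grey did not pass it; COL5A1, COL8A1 and COL9A3 lay highest and COL11A1 lowest, and the fibrillar, basement membrane and fibril-associated classes held both red and blue genes.

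Basement membrane collagens went both ways, and partners of 1 promoter stretch did so as well. COL4A1, on chromosome 13 at 110148963 to 110307233, and COL4A2, on chromosome 13 at 110305812 to 110513209, encode the chains of the common type IV molecule. COL4A1 was at 69.9, 79.6 and 85.9 CPM in siSCR and at 46.3, 48.01 and 42.98 CPM in siSURF2. All siSURF2 libraries were below all siSCR libraries, a 1.72-fold lower mean (log2 fold change -0.78 ± 0.07, edgeR adjusted p = 1.8e-10). COL4A2 was at 166, 175 and 186 CPM in siSCR and at 222, 219 and 201 CPM in siSURF2. All siSURF2 libraries were above all siSCR libraries for COL4A2, and it rose by 0.28 ± 0.05 on the log2 scale (edgeR adjusted p = 5.7e-05). Under 16 alternative settings neither direction changed, and the log2 fold change of COL4A1 ran from -0.85 to -0.72 and that of COL4A2 from 0.22 to 0.33. With ERCC library sizes the COL4A2 call was lost (edgeR adjusted p = 0.73), while that of COL4A1 was kept (0.021). The ends of these genes overlap in GENCODE 29, but their exons share no base.

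COL4A5, a chain of kidney and other basement membranes encoded on the X chromosome, was at 8.99, 9.63 and 9.75 CPM in siSCR and 16.6, 14.3 and 16.2 CPM in siSURF2, a rise of 0.73 ± 0.10 on the log2 scale (edgeR adjusted p = 6.6e-07). Its back-to-back neighbour COL4A6 was under the filter, with 4, 7 and 4 counts in siSCR and 13, 10 and 14 counts in siSURF2. COL4A4, a chain of the kidney filter, fell 2.35-fold, from 2.68, 2.19 and 3.08 CPM to 1.26, 0.774 and 1.35 CPM (log2 fold change -1.23 ± 0.26, edgeR adjusted p = 2.1e-04). Its neighbour COL4A3 had 4, 6 and 7 and 1, 3 and 6 counts in the same order of libraries and was not tested.

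Per kilobase of exon, beaded collagens held the most abundant collagen mRNAs of these cells. In CPM, COL12A1 was higher in siSCR, at a mean of 240 against 233 for COL6A2 and 220 for COL6A1. COL6A1 and COL6A2 lie one after the other on chromosome 21, at 45981737 to 46005050 and 46098097 to 46132849. COL6A1 was at 214, 212 and 234 CPM in siSCR and 488, 442 and 458 CPM in siSURF2. The groups were far apart and the mean rose 2.11-fold (log2 fold change 1.07 ± 0.05, edgeR adjusted p = 7.3e-16). COL6A2 was at 232, 231 and 236 CPM and 329.5, 324 and 308 CPM, again with no overlap, and rose by 0.46 ± 0.05 on the log2 scale (edgeR adjusted p = 3.6e-09). Per kilobase of exon both chains were near each other in siSCR, at 41.1 ± 2.23 and 43.3 ± 0.442 CPM, and apart in siSURF2, at 86.6 ± 4.38 and 59.5 ± 2.10 CPM. COL6A3, the long chain that completes the type VI molecule, was at 9.70, 9.15 and 16.6 CPM in siSCR and 11.3, 10.1 and 10.9 CPM in siSURF2. It missed the threshold (log2 fold change -0.14 ± 0.22, edgeR adjusted p = 0.62), with siSCR replicate 3 above the other 5 libraries. Without that library its log2 fold change was 0.19 (edgeR adjusted p = 0.21, in a range of 0.15 to 0.75). COL6A5 and COL6A6 had at most 6 counts in any library.

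Of the 4 transmembrane collagens, 2 rose and 2 were not tested. COL13A1, found at cell contacts and the nerve-muscle junction, was at 10.1, 10.1 and 8.32 CPM in siSCR and 16.2, 17.04 and 19.3 CPM in siSURF2. No libraries overlapped between groups, and it rose by 0.89 ± 0.10 on the log2 scale (edgeR adjusted p = 4.2e-08). COL17A1, a hemidesmosome component of skin, was at 15.2, 15.7 and 12.1 CPM and 18.4, 18.4 and 16.9 CPM, with a smaller gap between groups (log2 fold change 0.32 ± 0.10, edgeR adjusted p = 0.0066). Its adjusted p was 0.076 without siSCR replicate 3, within a range of 0.0018 to 0.64 over all alternatives. COL23A1 had 4, 5 and 0 counts in siSCR and 0 in every siSURF2 library, and with no filter on low counts its edgeR adjusted p was 0.026, and COL25A1 had at most 2 counts in any library.

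Among the 10 fibril-associated collagens, which sit on the surface of fibrils, 2 rose, 1 fell, 3 were not called and 4 were not tested. COL12A1, the most abundant of them, was at 220.4, 231 and 269.6 CPM in siSCR and 216, 199 and 182 CPM in siSURF2. It fell by 0.27 ± 0.07 on the log2 scale (edgeR adjusted p = 0.0054), and siSCR replicate 1 and siSURF2 replicate 1 were close. With the replicate number as a block its adjusted p was 0.079, within a range of 1.0e-05 to 0.51 over all alternatives. COL9A2 and COL9A3, chains of the type IX collagen of cartilage, rose by 0.42 ± 0.11 and 1.49 ± 0.34 (edgeR adjusted p = 0.0018 and 4.9e-04). COL9A2 was at 12.7, 10.5 and 14.9 CPM and 17.2, 15.7 and 18.04 CPM, and COL9A3 at 0.714, 0.535 and 0.411 CPM and 1.76, 1.19 and 1.70 CPM. COL9A3 was above the filter level throughout siSURF2 only, the group where it was higher, so its call is given as a description. The remaining chain, COL9A1, had 0 counts in all 6 libraries, which allows up to 0.0266 CPM over the 112705684 counts of the series (3 counts, counting error only).

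Differences that were not called stood at -0.22 ± 0.10 for COL16A1, 0.68 ± 0.41 for COL20A1 and 0.15 ± 0.08 for COL22A1 on the log2 scale (edgeR adjusted p = 0.067, 0.17 and 0.13). COL16A1 passed the threshold as lower without siSCR replicate 1 (adjusted p = 0.014) or without siSURF2 replicate 1 (0.034), in a range up to 0.69. COL22A1 was at 17.97, 19.2 and 19.3 CPM and 21.997, 20.7 and 19.9 CPM, all siSURF2 libraries above siSCR by little, and its adjusted p was 0.048 with upper-quartile factors, in a range up to 0.91. COL14A1, COL19A1 and COL21A1 had at most 11 counts in any library.

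The remaining classes held 5 tested genes. COL8A1, a short-chain collagen of blood vessel walls and the eye, had the highest log2 fold change of the 28, 1.58 ± 0.25 (edgeR adjusted p = 5.3e-06), at 1.01, 1.34 and 1.39 CPM in siSCR and 2.47, 3.87 and 4.90 CPM in siSURF2. The siSURF2 libraries all lay above siSCR and differed among themselves. Its partner COL8A2 had at most 10 counts in any library, and COL10A1, a marker of hypertrophic cartilage, at most 2. COL18A1, whose fragment endostatin inhibits vessel growth, was at 16.01, 17.01 and 15.5 CPM and 27.7, 26.7 and 22.4 CPM, a rise of 0.66 ± 0.09 on the log2 scale (edgeR adjusted p = 3.0e-07). In GENCODE 29, 16.4% of its exon length overlaps SLC19A1 on the opposite strand, a gene that fell by 0.20 ± 0.06, and reads of the pair can be told apart only in stranded counts. Strand use in counting was not given in the sources used here. COL7A1, the chain of the anchoring fibrils of skin, was at 5.53, 6.58 and 5.19 CPM and 9.18, 8.41 and 11.9 CPM and rose by 0.77 ± 0.14 (edgeR adjusted p = 3.6e-05). COL26A1 was at 4.23, 3.64 and 5.34 CPM and 3.24, 2.37 and 2.40 CPM and fell by 0.73 ± 0.19 on the log2 scale (edgeR adjusted p = 0.0023). COL15A1, the other endostatin-type collagen, stayed under 1 CPM with a log2 fold change of -0.01 ± 0.44, and COL28A1 had at most 3 counts.

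For chains that can assemble together, the ratio of the partners was taken within each library, where scaling between libraries cancels. There were 9 pairs with both chains past the filter. In each the siSURF2 and siSCR libraries did not overlap. Of single genes over the whole table, 28.6% lay wholly above and 28.6% wholly below. The share of separate ratios over other pairs of genes was not computed. Some pairs share a chain, so the 9 pairs are not independent of each other. For the 6 pairs without COL11A1, COL11A2 or COL9A3, the exact two-sided permutation test gave p = 0.10, the smallest that 3 libraries against 3 allow, so it cannot pass the threshold. The other 3 pairs hold chains that passed the filter only through the group where they were higher, and their ratios are given as a description. The log2 ratio of COL4A1 to COL4A2 was -0.86, -0.75 and -0.73 in siSCR and -1.88, -1.80 and -1.83 in siSURF2. Per kilobase of exon, COL4A2 was therefore 1.71 times COL4A1 in siSCR and 3.57 times in siSURF2. The log2 ratio of COL6A1 to COL6A2 was -0.11, -0.11 and -0.0011 in siSCR and 0.58, 0.46 and 0.59 in siSURF2, where COL6A1 was 1.45 times COL6A2. For COL5A1 over COL5A2 it was 1.35, 1.27 and 1.04 and 2.20, 2.16 and 2.08, and for COL5A1 over COL5A3 1.78, 1.72 and 1.67 and 3.73, 3.87 and 3.75.

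The pairs with COL6A3 or with scarce chains were less even. COL6A1 exceeded COL6A3 by log2 ratios of 6.34, 6.41 and 5.69 in siSCR and 7.31, 7.32 and 7.27 in siSURF2, siSCR replicate 3 being the lowest. The chain ratio COL6A2/COL6A3 differed by 0.54 on the log2 scale (siSURF2 minus siSCR) and by 0.28 without siSCR replicate 3. The COL9A2 to COL9A3 ratio differed by -1.02, the COL11A1 to COL11A2 ratio by -3.27 and the COL5A1 to COL11A1 ratio by 3.85. With 2 counts of COL11A1 in siSURF2 replicate 1, the difference in the chain ratio COL11A1/COL11A2 was -2.31 without that library, -3.98 without siSURF2 replicate 2 and -3.88 without siSCR replicate 1. For the chain ratio COL5A1/COL11A1 it was 2.88 without siSURF2 replicate 1 and 4.45 without siSURF2 replicate 2.

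**Figure D3:**
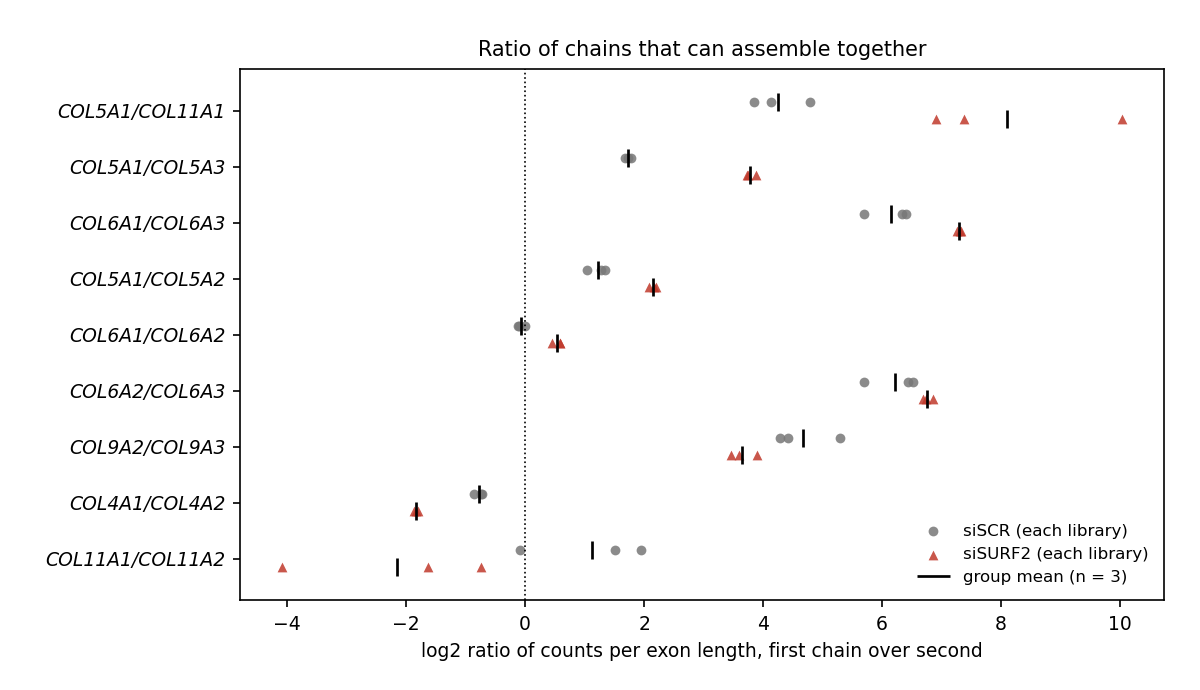
Log2 ratio of counts per exon length for 9 pairs of chains that can assemble together, first over second, with 1 point per library (grey circles siSCR, red triangles siSURF2) and a bar at the mean of 3. The libraries of the groups are separate in every pair, COL4A1 over COL4A2 moving from -0.78 to -1.84 and COL6A1 over COL6A2 from -0.07 to 0.54.

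Enzymes and chaperones that modify and fold collagen chains rose more often than they fell. Of 18 tested, 13 rose, 2 fell and the rest were not called, with a median log2 fold change of 0.29 against 0.00 over all genes (25.8% of all genes tested rose). Among those that rose, P4HA3 had 22, 19 and 7 counts in siSCR and 31, 29 and 33 in siSURF2. It was above the filter level throughout siSURF2 only, where it was higher, so its call is given as a description. P4HA2, a catalytic subunit of the prolyl hydroxylase that stabilises the helix, rose from 74.4 ± 3.47 to 132 ± 5.86 CPM (SD, n = 3 each; 0.82 ± 0.05, edgeR adjusted p = 4.6e-13). SERPINH1, the collagen chaperone HSP47, rose from 122 ± 7.86 to 197 ± 5.00 CPM (0.69 ± 0.05). The lysyl hydroxylases PLOD1 and PLOD3 rose by 0.56 ± 0.05 and 0.53 ± 0.05. The prolyl hydroxylase P3H2 fell by 0.33 ± 0.10, as did P3H4, of a lysyl hydroxylase complex, by 0.16 ± 0.06. The P3H4 call (adjusted p = 0.022) was lost without siSCR replicate 1, siSURF2 replicate 2 or siSURF2 replicate 3 (0.063, 0.078 and 0.072).

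Genes of export held calls in each direction. Of 12 genes of procollagen export, 5 rose and 4 fell, with a median of -0.04, where 25.8% of all genes tested rose and 26.2% fell. MIA3, which encodes the procollagen receptor TANGO1, SEC24D and SEC23A of the COPII coat and CREB3L2, a transcription factor of secretory genes, rose by 0.35 ± 0.07, 0.48 ± 0.07, 0.26 ± 0.05 and 0.24 ± 0.07. SAR1A, the GTPase that starts COPII coat assembly, fell from 200.2 ± 4.44 to 83.3 ± 1.54 CPM (-1.26 ± 0.05, edgeR adjusted p = 8.6e-18), and SEC13, SAR1B and KDELR2 fell by 0.47 ± 0.06, 0.21 ± 0.06 and 0.13 ± 0.05. The KDELR2 call was lost without siSCR replicate 1 or 3 or siSURF2 replicate 1 or 3 (adjusted p from 0.068 to 0.19), and that of CREB3L2 without siSCR replicate 2 (0.091). Of 11 tested genes of propeptide removal and cross-linking, 1 rose and 7 fell, with a median of -0.20, against the same 25.8% and 26.2% of all genes. ADAMTS3, which removes the amino-terminal propeptide, fell from 46.6 ± 2.24 to 27.8 ± 1.82 CPM (-0.75 ± 0.07), and the enhancers of carboxy-terminal cleavage PCOLCE and PCOLCE2 fell by 0.37 ± 0.08 and 0.48 ± 0.07. BMP1, the carboxy-terminal protease itself, rose by 0.27 ± 0.07, while LOXL2, a cross-linking oxidase, fell by 0.20 ± 0.06.

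Matrix partners and receptors moved in both directions. Of 7 tested fibril organisers, 4 rose and 2 fell, and of all genes tested 52.0% were called. FN1, fibronectin, rose from 82.3 ± 10.1 to 177 ± 17.9 CPM (1.10 ± 0.09) and SPARC, a collagen-binding glycoprotein of bone, from 1019 ± 28.4 to 1408 ± 124 CPM (0.47 ± 0.06). LUM and FBN1 rose by 2.88 ± 0.31 and 0.83 ± 0.13, and PRELP and TNXB fell by 2.05 ± 0.42 and 0.51 ± 0.18, the TNXB call being lost without siSCR replicate 1 (adjusted p = 0.091) or siSURF2 replicate 2 (0.089). PRELP had 25, 19 and 24 counts in siSCR and 2, 6 and 9 in siSURF2. It passed the filter only through siSCR, where it was higher, so its call is given as a description. Of 8 tested receptors, 4 rose and 4 fell. ITGA2, the collagen-binding alpha 2 integrin chain, rose from 19.95 ± 2.48 to 42.7 ± 4.40 CPM (1.10 ± 0.09), and DDR1, a receptor kinase that binds collagen, by 0.67 ± 0.05. DDR2, the related kinase of connective tissue, fell by 1.05 ± 0.18 from 5.34 ± 0.826 CPM, and GP6, a receptor best known in platelets, by 1.64 ± 0.24. The integrin chains ITGA1 and ITGA10 rose by 0.57 ± 0.12 and 0.78 ± 0.31, and their partner ITGB1 and the endocytic receptor MRC2 fell by 0.14 ± 0.05 and 0.16 ± 0.06. Calls were lost on leaving out 1 library for ITGA10 without siSCR replicate 1 or 3 or siSURF2 replicate 1 or 3, ITGB1 without siSCR replicate 2 or 3 or siSURF2 replicate 1, and MRC2 without siSCR replicate 3 or siSURF2 replicate 2 or 3 (adjusted p from 0.053 to 0.23).

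**Figure D4:**
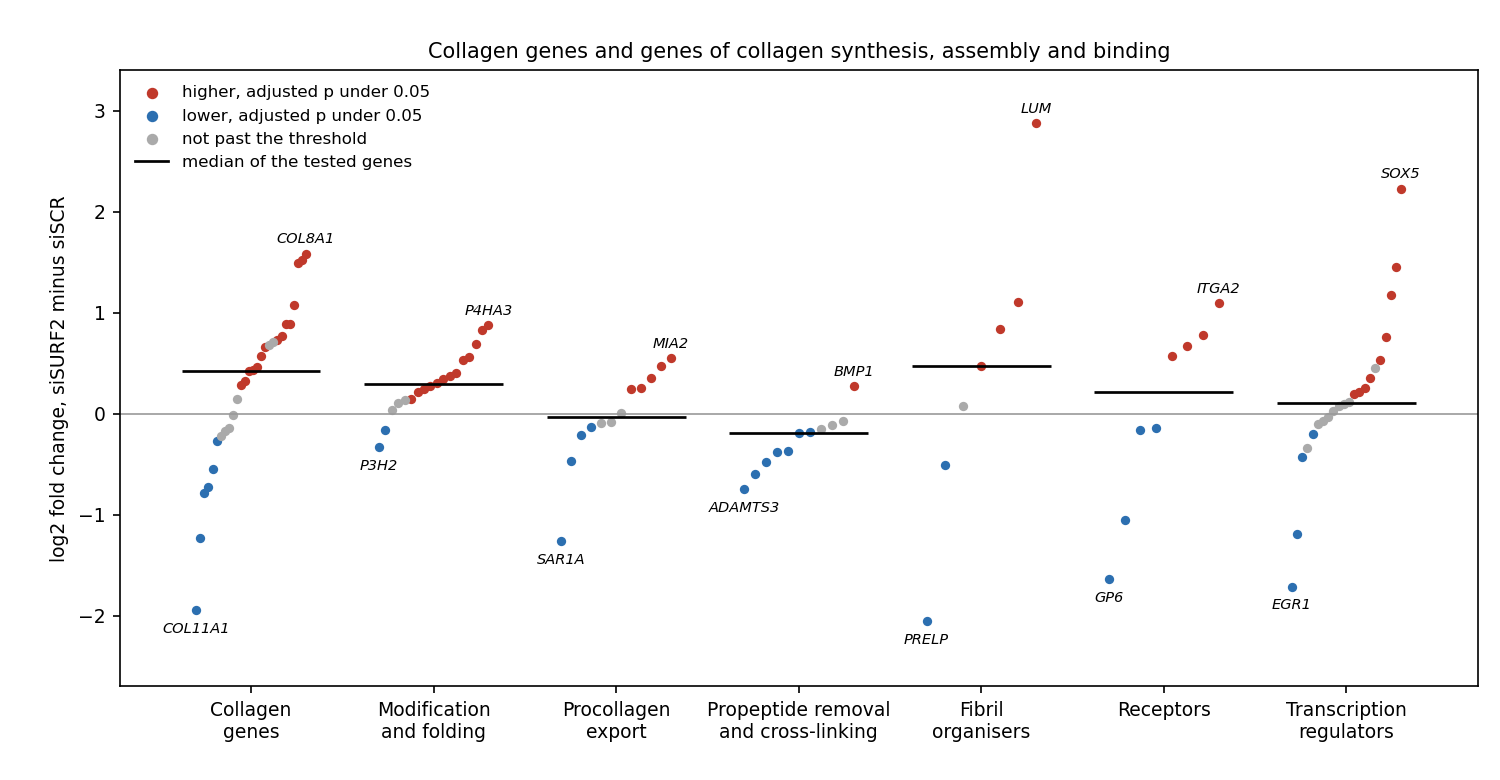
Log2 fold change (siSURF2 minus siSCR) of the tested collagen genes and of the tested genes of 6 lists, sorted within each list, with a bar at the median and the lowest and highest gene named. The medians were 0.42 for collagen genes, 0.29 for modification and folding and -0.20 for propeptide removal and cross-linking.

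Of 22 tested regulators of collagen transcription, 9 rose and 4 fell, 59.1% called against 52.0% of all genes tested. SOX9 and SOX5, factors of cartilage collagen genes, rose from 21.3 ± 2.80 to 58.5 ± 1.77 CPM (1.46 ± 0.08, edgeR adjusted p = 3.0e-15) and from 0.992 ± 0.186 to 4.63 ± 0.335 CPM (2.23 ± 0.22). PRRX1, a mesenchymal factor, and SMAD7, an inhibitor of TGF-beta signalling, rose by 1.17 ± 0.14 and 0.53 ± 0.08. ETS1 fell from 198 ± 11.3 to 86.4 ± 2.03 CPM (-1.19 ± 0.05), EGR1, an immediate-early factor, by 1.71 ± 0.22, TGFB1, a ligand that raises collagen synthesis, by 0.20 ± 0.05 and CREB3L1, a factor of COL1A1 in osteoblasts, by 0.43 ± 0.11. The related ligands TGFB2 and TGFB3 were called higher, by 0.22 ± 0.07 and 0.36 ± 0.12 (edgeR adjusted p = 0.0092 and 0.013). Libraries of the groups overlapped for TGFB2. RUNX2, the master factor of osteoblasts, was at 0.02 ± 0.08 and missed the threshold.

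Markers of other cell types moved as well, where 25.8% of all genes tested rose and 26.2% fell. Of 8 chondrocyte markers, 6 were tested and 2 rose, SOX9 and HAPLN1 (the latter by 0.64 ± 0.18), the list summing to 35.2 to 47.8 CPM in siSCR and 79.5 to 90.7 CPM in siSURF2, while COMP and CNMD stayed under 1 CPM. Most of the rise of that sum was SOX9 itself, and ACAN, MATN1, MATN3 and SNORC, with log2 fold changes of 0.06 ± 0.27, -0.04 ± 0.35, 0.04 ± 0.15 and 0.42 ± 0.35, were not called. Of 9 fibroblast markers, 4 were tested, LUM rose and PDGFRB fell by 1.80 ± 0.06, the list summing to 189 to 197 CPM and then 127 to 138 CPM, with DPT at 0 counts in all 6 libraries and DCN at 0 in siSCR. Most of the fall of that sum was PDGFRB, from 84.4 ± 4.24 to 24.2 ± 0.706 CPM. THY1, the most abundant of them, was at 105 ± 5.78 and 102 ± 3.43 CPM, and neither it nor PDGFRA was called. Of 9 epithelial markers, 6 were tested, 2 rose and 3 fell, the list summing to 1482 to 1609.8 CPM and then 1037 to 1114 CPM. KRT8 and KRT18 made up most of that sum and fell from 1028 to 726 CPM and from 487 to 302 CPM. EPCAM and CLDN4 rose by 0.99 ± 0.13 and 1.07 ± 0.08. CDH1 fell by 2.70 ± 0.31 and was above the filter level throughout siSCR only, where it was higher. Of 6 endothelial markers, 4 were tested and 3 fell, the list summing to 8.15 to 9.14 CPM and then 4.49 to 5.80 CPM. Among those that fell, PECAM1 and TEK were above the filter level throughout siSCR only, where they were higher. Of the osteoblast markers, SPP1 rose by 1.67 ± 0.19 and ALPL fell by 2.07 ± 0.25. The part of any of these in the collagen values was not tested.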

How the data were processed

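PolyA RNA of 6 libraries of U2OS cells was sequenced, 3 per group. The table the authors deposited holds raw gene-level read counts that were not normalised. The submitters' processing notes name GRCh38 as the build, with fastp 0.23.1 and STAR 2.5.2b among the tools. How reads were counted, with which annotation and strand use, was not given in the sources used here. A gene name table gave symbols for 56948 of 58051 identifiers and GENCODE 29 for 499 more, and 604 stayed unnamed. The 92 ERCC spike-in rows (1.12% to 1.72% of counts) were left out of totals and tests.

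Genes were filtered with filterByExpr (minimum count 10, minimum total 15), scaled with TMM factors and tested with edgeR 4.0.16 in R 4.3.3 (quasi-likelihood, robust, 1 term for the group). P-values were adjusted by the Benjamini-Hochberg method across 17561 genes. CPM values are TMM-normalised. Log2 fold changes include edgeR's prior count, and SE is the fold change without it divided by the square root of F. Per-kilobase values use the union of GENCODE 29 exons, and chain ratios used counts plus 0.5. At least 17.1 counts make 1 CPM, so levels under 1 CPM rest on few counts. Scripts were tested on simulated data. Promoter windows are from RefSeq (GRCh38.p14).

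Members and lists were chosen with earlier results of these data known. Every member is described, with up to 4 genes per direction of each pathway list by smallest adjusted p. Genes named from marker lists, SLC19A1, P4HA3, TGFB2 and TGFB3 were chosen after their values were seen. Alternatives were RLE, upper-quartile, no and ERCC scaling, other filters, DESeq2 1.42.0, limma-voom (limma 3.58.1), a non-robust prior, a replicate block and leaving out each library.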

Additional observations from a re-analysis of the deposited data

How the results depend on the processing

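Of the 21 collagen calls, 18 were kept under each of 15 alternatives, and COL11A2, COL12A1 and COL17A1 were each lost under at least 1 of them. ERCC spike-in scaling kept 8, with 5 collagen genes higher and 3 lower, against 15 and 6, and with 802 and 825 of all genes, against 4535 and 4596. All 13 lost calls kept their direction. The cause was not tested. Leaving out 1 library gave 14 to 15 collagen genes higher and 6 to 7 lower, and 3947 to 4404 and 3840 to 4491 of all genes. COL6A3 ran from -0.30 without siSCR replicate 2 to 0.19 without siSCR replicate 3. COL15A1 (-0.01, not called) turned to 0.031 with upper-quartile factors, 0.011 with no factors and 0.0063 with no filter, and ran from -0.27 to 0.25 on leaving out 1 library (0.15 without siSCR replicate 2, 0.25 without siSURF2 replicate 2).

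Same-numbered libraries of the groups correlated at 0.0035, -0.092 and -0.039 in their deviations from the group means, and no library correlated best with its own number. Deviations from a mean of 3 libraries cancel within a group, so these correlations are not independent of each other. By this measure same-numbered libraries were no more alike than others, and whether they shared a batch was not settled by it. With the replicate block 15 collagen genes were higher and 5 lower, and 4478 and 4550 of all genes. No chain ratio changed direction on leaving out a library or without the prior count, and leaving out 1 library moved the difference in the chain ratio COL4A1/COL4A2 between -1.10 and -1.04. With no filter, 1 of the 16 members left out by it was called, COL23A1 as lower (edgeR adjusted p = 0.026).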
